A study of Homo sapiens with 4 samples.

Results

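The genes described here encode the nuclear pore and the receptors that carry cargo through it. They are the protein-coding genes of the deposited table whose symbols mark them as numbered nucleoporins (NUP), karyopherins alpha and beta (KPNA, KPNB), importins (IPO), exportins (XPO) or transportins (TNPO), together with RAN, RANBP1, RANBP2, RCC1 and CSE1L. The rule reads symbols and gene type, and it gave 50 of the 48162 genes listed, of which 20312 are protein-coding. A mean of at least 1 FPKM (fragments scaled to gene length in kilobases and to library size) over the libraries was asked for before testing, and 47 of the 50 passed. The 3 that did not pass are IPO4, KPNA7 and NUP210L.

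RNA was sequenced from MDA-MB-231 cells, an established human breast cancer line, after 24 h with either MGH-CP1 or vehicle control. MGH-CP1 is a small molecule that blocks the palmitoylation of TEAD proteins, the transcription factors through which YAP and TAZ act, and the study used it to ask which genes depend on TEAD-YAP activity. The sample labels give a concentration of 10 µM, where the study's methods print mM as the unit. Each condition had 2 libraries of poly-T selected mRNA, the vehicle columns are headed DMSO in the table, and no source says whether the 2 libraries came from separate cultures, so that p-values measure only the spread between these libraries.

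The vehicle control libraries held 25455533 and 25508824 fragments on listed genes and the MGH-CP1 libraries 17997221 and 17577930. Transcripts of the mitochondrial genome took 0.447% and 0.418% of the vehicle control fragments and 1.57% and 1.53% of those after MGH-CP1. The line's mesenchymal markers VIM, CD44, AXL and MSN lay between 149 and 341 FPKM, the oestrogen and progesterone receptor genes ESR1 and PGR at no more than 0.0243, CDH1 between 0.289 and 0.638 and GATA3 between 4.17 and 5.65, while ERBB2 was present at 24.7 to 28.4 FPKM. AXL itself was lower after MGH-CP1, from 274 and 293 FPKM to 149 and 187 (limma adjusted p = 4.25e-04), while VIM, CD44 and MSN were not called. CD3E, CDH5 and DES, which mark other cell types, were listed at 0 in all 4 libraries, PTPRC and ACTC1 did not exceed 0.0406 FPKM, and ALB was listed at 0 in both vehicle control libraries, at 0.0737 in the first MGH-CP1 library and at 2.56 (102 fragments) in the second. The TEAD target genes CYR61, CTGF and ANKRD1 were lower after MGH-CP1 by 0.75, 0.66 and 0.66 on the log2 scale (limma, adjusted p = 3.29e-05, 1.02e-04 and 5.88e-05).

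As background, the nuclear pore complex is a cylinder set in the nuclear envelope and built from many copies of its nucleoporins. Outer and inner rings form the scaffold, nucleoporins with phenylalanine-glycine repeats fill the channel, and filaments and a basket extend to the cytoplasm and the nucleus. Importins bind a cargo's nuclear localization signal in the cytoplasm and exportins bind nuclear export signals in the nucleus, and the small GTPase RAN, kept in its GTP form in the nucleus by its exchange factor RCC1, sets the direction. Classical import uses an importin alpha adaptor together with importin beta 1 (KPNB1), and CSE1L returns importin alpha to the cytoplasm.

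The transcripts of this machinery were lower after MGH-CP1 in nearly every structural and functional class. Of the 47 genes tested, 41 (87.2%) were lower, none was higher and 6 did not pass the test, whereas 23.8% of all 12080 genes tested were lower and 27.1% were higher (limma on log2(FPKM + 1), two-sided, Benjamini-Hochberg adjusted p below 0.05 across the whole table). The count of 0 higher genes was also 0 at an unadjusted p under 0.05 and by limma voom on fragments. Most of these genes are well expressed, and among all genes with a mean of at least 5 FPKM the share that was lower was 30.4%, as it was 25.0% among protein-coding genes. With no filter on low values, 36 of 49 members were lower, beside 7.41% of 24878 genes, and 9.16% of those genes but 0 members were higher. The median log2 fold change over the 47 was -0.45, beside 0.01 over all genes tested. The SD of the members' median was 0.045 between the 4 ways of setting 1 treated library against 1 control library. These pairs share libraries and are not independent.

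The libraries themselves show the same order. In 43 of the 47 genes (91.5%) both MGH-CP1 libraries lay below both vehicle control libraries, which held for 37.4% of all genes tested, and in NUP62CL and KPNA5 both lay above, which held for 39.8%. The libraries overlapped in TNPO2 and IPO13. A fall of at least 0.5 on the log2 scale with a call was seen in 19 genes (40.4% of 47), beside 6.16% of all genes tested. The 41 called falls ran from 16.0% to 45.9% of mean FPKM, with standard errors of 0.05 to 0.09 on the log2 scale, adjusted p of 1.77e-05 to 0.0182 from limma and 285 to 21001 fragments behind each value. All 50 genes together took 0.915% and 0.887% of all fragments in the vehicle control libraries and 0.619% and 0.646% after MGH-CP1, a fall of 29.8% in the mean share. These are shares of a bulk library, in which fewer cells with a high level and less RNA per cell cannot be told apart.

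**Figure D1:**
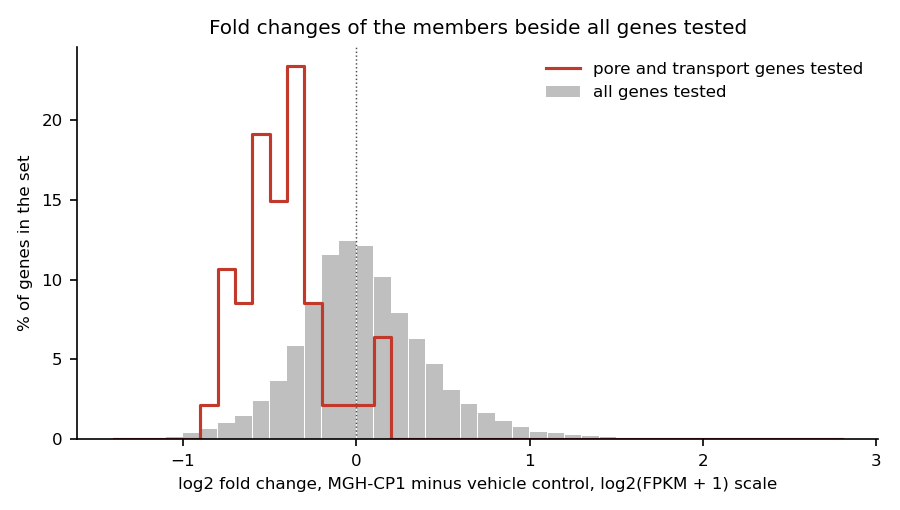
Histogram of log2 fold changes (MGH-CP1 minus vehicle control, log2(FPKM + 1) scale, x axis, bins of 0.1) as a percentage of the genes in each set (y axis), for the 47 pore and transport genes tested (red outline) and all 12080 genes tested (grey). The red outline lies mostly left of the dotted line at 0, with its median at -0.45, while the grey bars centre near 0.01.

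KPNA2 and CSE1L, a cargo adaptor and the exportin that recycles it, were among the members with the largest falls, TNPO1 fell and its close relative TNPO2 was not called. Their upstream promoter sequences are shown so that the letters in front of genes with a large fall and of this pair can be read side by side. Each is the 250 bases before the transcription start from RefSeq (GRCh38.p14), 5′ to 3′ on the gene's strand, at chr17:68035485-68035734 (plus) for KPNA2, chr20:49046062-49046311 (plus) for CSE1L, chr5:72816411-72816660 (plus) for TNPO1 and chr19:12723933-12724182 (minus) for TNPO2. Capitals mark the motif letters defined below.
KPNA2: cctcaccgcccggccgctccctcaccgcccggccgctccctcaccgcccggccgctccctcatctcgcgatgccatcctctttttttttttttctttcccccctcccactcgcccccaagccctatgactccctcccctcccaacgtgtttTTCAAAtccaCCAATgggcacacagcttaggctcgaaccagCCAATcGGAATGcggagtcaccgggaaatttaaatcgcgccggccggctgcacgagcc
CSE1L: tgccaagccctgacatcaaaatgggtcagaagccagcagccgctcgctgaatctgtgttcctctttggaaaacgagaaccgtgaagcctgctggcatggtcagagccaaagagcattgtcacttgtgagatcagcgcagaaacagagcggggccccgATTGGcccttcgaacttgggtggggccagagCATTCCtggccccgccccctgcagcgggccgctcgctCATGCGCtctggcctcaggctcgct
TNPO1: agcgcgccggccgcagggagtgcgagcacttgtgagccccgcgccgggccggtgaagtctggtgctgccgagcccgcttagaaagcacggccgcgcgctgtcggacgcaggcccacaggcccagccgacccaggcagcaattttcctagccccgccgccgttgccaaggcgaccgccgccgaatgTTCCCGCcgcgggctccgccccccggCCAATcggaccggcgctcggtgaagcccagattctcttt
TNPO2: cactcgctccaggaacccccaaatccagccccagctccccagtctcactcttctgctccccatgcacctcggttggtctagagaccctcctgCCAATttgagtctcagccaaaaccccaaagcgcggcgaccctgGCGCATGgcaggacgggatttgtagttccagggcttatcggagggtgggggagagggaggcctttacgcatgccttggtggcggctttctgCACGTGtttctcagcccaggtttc

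The motifs were searched on both strands as plain letters: the E-box CACGTG read by MYC-type factors, the E2F letters TTCCCGC or their variants TTGGCGC or else TTCGCGC or else TTGCCGC, the CCAAT box of NF-Y, the cell cycle homology region (CHR) TTTGAA, the TEAD letters GGAATG, the ETS letters CCGGAAG and the NRF1 letters CATGCGC. The variant TTGGCGC can share letters with the CCAAT box on the other strand, so that a single stretch may count for both. Counted from the start site, KPNA2 has CCAAT boxes beginning at -89 and -58, the CHR letters at -99 and the TEAD letters at -52. CSE1L has a CCAAT box at -93, the TEAD letters at -62 and the NRF1 letters at -25. In TNPO1 an E2F form stands at -65 and a CCAAT box at -39, and in TNPO2 a CCAAT box at -158, the NRF1 letters at -115 and an E-box at -24. A CCAAT box is thus found in all 4 windows, while the TEAD letters are in those of KPNA2 and CSE1L and in neither transportin window. Large falls did not always go with the TEAD letters. The windows of NUP37, NUP155 and IPO5, which fell by 0.77, 0.76 and 0.75 against 0.74 for CSE1L, do not hold them. Among all members with a matched promoter, the TEAD letters were in 7 of 36 that were lower (19.4%) and in 2 of 5 tested and not called (40.0%). With only 5 promoters of genes not called, these shares cannot show whether the letters differ between the groups.

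A promoter was matched by symbol for 43 of the 50 genes, and 36 of these belong to genes that were lower. CCAAT letters were in 46.5% of the 43 windows, in 35.4% of the 8492 promoters of tested genes and in 33.0% of all 27305 promoters. The ETS letters were in 27.9%, 17.1% and 8.82% of these sets, the E2F forms in 25.6%, 18.1% and 11.0%, and the TEAD letters in 20.9%, 9.53% and 11.9%. The CHR letters were in 18.6%, 8.0% and 13.6%, the E-box in 16.3%, 9.13% and 6.49%, and the NRF1 letters in 16.3%, 6.94% and 3.96%. For each of the 7 motifs the share was highest among the pore and transport genes, whose windows had a median GC content of 62.4%, between the 58.0% of all promoters and the 65.2% of promoters of tested genes. These shares rest on 7 to 20 promoters per motif, they describe letters and not binding, and no test was made of them. Only 5 promoters belong to genes tested and not called, too few to set against the 36.

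**Figure D2:**
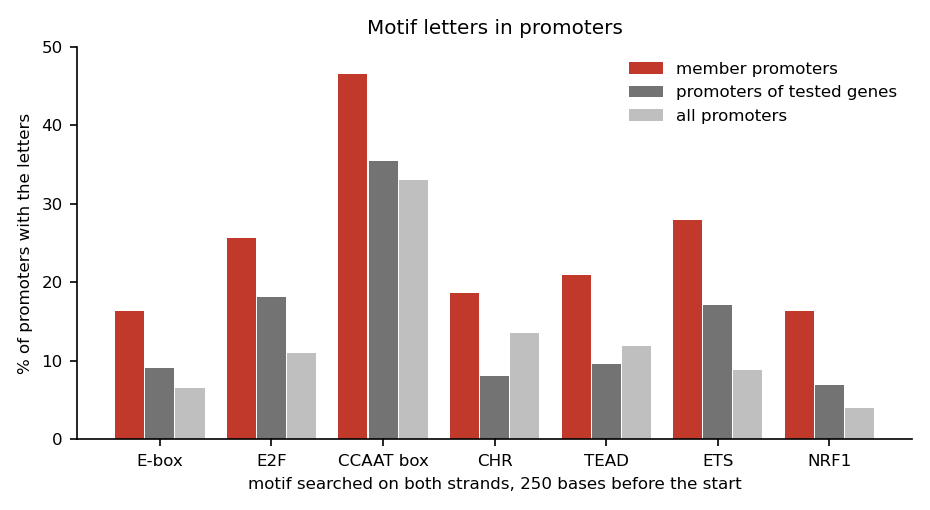
Share of promoter windows (y axis, percent; 250 bases before the start, both strands) that hold the letters of each motif (x axis), for the 43 member promoters, the 8492 promoters of tested genes and all 27305 promoters. The member bars are the highest of each trio, from 16.3% for the E-box and NRF1 letters to 46.5% for the CCAAT box.

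The numbered scaffold nucleoporins were lower in both rings. All 6 outer ring genes of the set, whose products form the Y-shaped complex that coats the membrane of the pore, and all 5 inner ring genes were lower, with median log2 fold changes of -0.54 (-0.77 to -0.27) and -0.64 (-0.76 to -0.39). NUP37 (chr12:102467967-102513902, minus strand, hg19), an outer ring subunit, had 25.0 and 21.8 FPKM in the vehicle control libraries and 13.2 and 13.4 after MGH-CP1. The groups stood far apart, although the vehicle control libraries differed from each other more than the MGH-CP1 libraries did, and the log2 fold change was -0.77 (SE 0.07, limma adjusted p = 1.17e-04). Of the other Y-complex genes, NUP107 and NUP43 fell by 0.66 and 0.64, NUP85 and NUP160 by 0.45 and 0.37, and NUP133 by 0.27. These 6 genes lost between 17.7% (NUP133) and 43.3% (NUP37) of their mean FPKM, whereas SEC13, a Y-complex subunit without a NUP number, was not called. With no filter on low values NUP160 was not called either (limma adjusted p = 0.0604).

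NUP155 (chr5:37288239-37371283, minus strand), which links the inner ring to the membrane, had 24.7 FPKM in both vehicle control libraries and 13.3 and 15.1 after MGH-CP1. Neither group came near the other, with a log2 fold change of -0.76 (SE 0.07, limma adjusted p = 9.61e-05). The large inner ring scaffold proteins are encoded by NUP188, NUP205 and NUP93, which fell by 0.73, 0.64 and 0.48. NUP35, also of the inner ring, fell by 0.39 at the lowest level of the ring (7.50 to 8.60 FPKM in the vehicle control libraries). With no filter on low values, NUP35 had an adjusted p of 0.0581 from limma. NUP188 and NUP205 are paralogues of similar size, and both lay between 45.9 and 49.1 FPKM in the vehicle control libraries and between 28.2 and 31.7 after MGH-CP1.

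The genes of the channel and its 2 faces were lower as well, by smaller medians: -0.39 for the 3 central channel genes, -0.31 for the 3 genes of the cytoplasmic filaments and -0.51 for both nuclear basket genes. NUP98 (chr11:3692313-3819022, minus strand), a nucleoporin with glycine-leucine-phenylalanine-glycine repeats, had 34.4 and 33.8 FPKM without the compound and 23.0 and 23.6 with it. That is a log2 fold change of -0.53 (SE 0.05, limma adjusted p = 1.28e-04), while NUP54 and NUP62, partners in the channel's repeat complex, fell by 0.39 and 0.37.

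On the cytoplasmic side, NUP88 (chr17:5264258-5323480, minus strand), which anchors NUP214 at the pore, went from 32.2 and 30.6 FPKM to 22.7 and 23.6, a log2 fold change of -0.42 (SE 0.06, limma adjusted p = 5.30e-04). RANBP2 (chr2:109335937-109402267, plus strand), the giant filament protein that holds SUMO-modified RANGAP1 at the pore, had 16.0 and 15.3 FPKM in the vehicle control libraries and 12.4 and 12.6 after MGH-CP1. The groups did not overlap, and the log2 fold change was -0.30 (SE 0.06, limma adjusted p = 0.00402). RANBP2 has near-identical copies in the RGPD genes, of which 7 are listed; the highest, RGPD8, held 63 to 104 fragments per library against 2597 to 4775 for RANBP2, and reads that they share cannot be told apart. NUP214 fell by 0.31 (limma adjusted p = 0.0131), and without the first MGH-CP1 library or the first vehicle control library its adjusted p was 0.0848 or 0.0598, and with no filter on low values it was 0.0938.

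In the basket, NUP50 (chr22:45559722-45583892, plus strand), which takes part in releasing cargo from importin alpha, had 29.5 and 28.1 FPKM in the vehicle control libraries and 18.1 and 20.2 with the compound. Its log2 fold change was -0.56 (SE 0.07, limma adjusted p = 3.16e-04), and that of NUP153, which ties the basket to the nuclear ring, was -0.46 (limma adjusted p = 7.86e-04).

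The membrane glycoprotein NUP210 (chr3:13357737-13461809, minus strand) had the smallest called fall of all members, from 10.6 and 10.8 FPKM to 8.86 and 9.07. Both groups were tight and apart, with a log2 fold change of -0.23 (SE 0.06, limma adjusted p = 0.0182), but the call was lost when any single library was left out (adjusted p of 0.0517 to 0.0816). Its testis-type relative NUP210L was close to silent, with 0 to 2 fragments per library. NUP62CL, a paralogue of the channel nucleoporin NUP62 whose place in the pore is unclear, was the only NUP gene tested that was not called: it had 2.08 and 1.68 FPKM in the vehicle control libraries and 2.18 and 2.30 after MGH-CP1, for a log2 fold change of 0.18 (SE 0.11, limma adjusted p = 0.234).

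**Figure D3:**
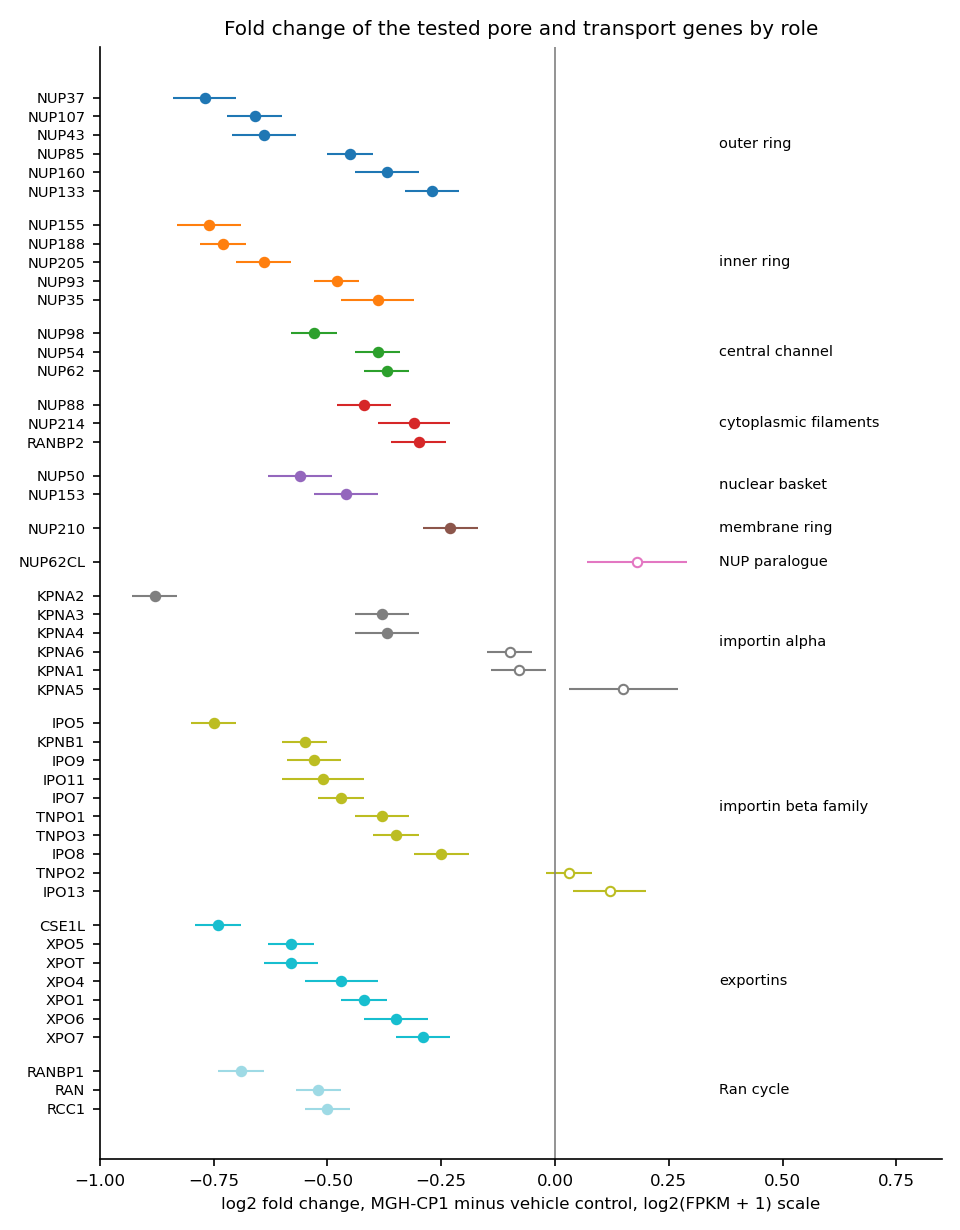
Log2 fold change (MGH-CP1 minus vehicle control, log2(FPKM + 1) scale, x axis) of the 47 genes tested (y axis), grouped and coloured by role, with bars of 1 standard error from limma. Filled points are genes called at an adjusted p below 0.05 and open points are not called; all 41 filled points lie left of 0, from -0.88 for KPNA2 to -0.23 for NUP210.

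The importin alpha family was split. These adaptors recognise the classical nuclear localization signal, and of the 6 tested, KPNA2, KPNA3 and KPNA4 were lower while KPNA1, KPNA5 and KPNA6 were not called. KPNA2 (importin alpha 1, chr17:66031635-66042958, plus strand, hg19) had 165 and 160.5 FPKM in the vehicle control libraries and 86.9 and 89.4 after MGH-CP1. The replicates differed by a few percent and the conditions by 45.9% of the mean, with a log2 fold change of -0.88 (SE 0.05, limma adjusted p = 1.77e-05). It was the largest fall among the 47 genes, and 97 of the 12080 genes tested fell further.

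KPNA3 and KPNA4, which belong to a common subfamily of the adaptors, fell by 0.38 and 0.37 (limma adjusted p = 0.00171 and 0.00225). KPNA6 had 25.4 FPKM in both vehicle control libraries and 23.0 and 24.2 after MGH-CP1, with a log2 fold change of -0.10 (SE 0.05, limma adjusted p = 0.158). KPNA1 changed by -0.08 (SE 0.06, adjusted p = 0.339 from limma) and KPNA5, at 1.44 to 1.95 FPKM, by 0.15 (SE 0.12, adjusted p = 0.348). These 3 genes form another subfamily of importin alpha, and a p above the threshold does not show that their levels were equal in the conditions. The oocyte and embryo adaptor KPNA7 was too low to be tested, with 6 and 6 fragments in the vehicle control libraries and 24 and 11 after MGH-CP1; fitted with no filter on low values, it changed by 0.45 (limma adjusted p = 0.138).

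Since KPNA2 made up most of the family's transcripts, its fall changed the makeup of the pool. Importin alpha transcripts together came to 244 and 236 FPKM in the vehicle control libraries and 153 and 157 after MGH-CP1. KPNA2 was 67.6% and 68.0% of this sum without the compound and 56.8% and 56.9% with it, while the other 6 adaptors together had 79.1 and 75.6 FPKM without it and 66.1 and 67.6 with it. The ratio of KPNA2 to KPNA6 went from 6.50 and 6.32 to 3.77 and 3.69. These sums and ratios of FPKM were chosen after the values were seen and are given with no test; in each of them the 2 conditions did not overlap.

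**Figure D4:**
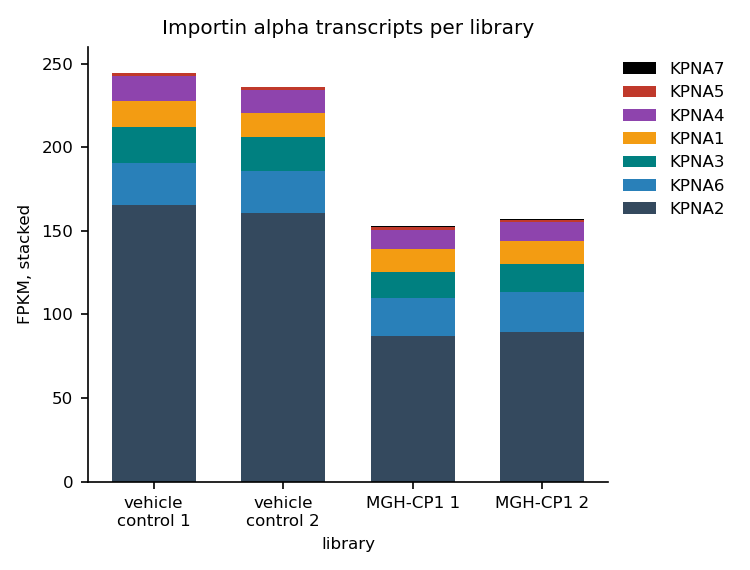
Stacked FPKM of the 7 importin alpha genes (y axis) in each of the 4 libraries (x axis), with KPNA2 at the bottom of each bar. The bars reach 244 and 236 for vehicle control and 153 and 157 after MGH-CP1, and most of the lost height is in the KPNA2 segment.

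Receptors of the importin beta family bind cargo or adaptor, the pore's repeats and RAN. Of the 11 grouped here as import receptors, with the exportins kept apart, 10 were tested and 8 were lower (median -0.43, range -0.75 to 0.12). IPO5 (importin 5, chr13:98605912-98676551, plus strand), which imports ribosomal proteins and histones, had 62.7 and 60.7 FPKM in the vehicle control libraries and 35.9 and 36.9 after MGH-CP1. With a log2 fold change of -0.75 (SE 0.05, limma adjusted p = 3.04e-05), it had the largest fall of this family, and the gap between conditions was far larger than that between replicates.

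KPNB1 (importin beta 1, chr17:45726842-45762871, plus strand), the partner of the importin alpha adaptors, was the most abundant of these import receptors at 134 and 131 FPKM, and had 88.5 and 91.7 FPKM after MGH-CP1. The fall of 0.55 on the log2 scale (SE 0.05, limma adjusted p = 7.44e-05) was smaller than that of KPNA2, and KPNB1 stood at 0.813 and 0.816 of the KPNA2 level without the compound and at 1.02 and 1.03 of it after MGH-CP1. The import receptors IPO9, IPO11, IPO7, TNPO3 and IPO8 fell by 0.53, 0.51, 0.47, 0.35 and 0.25, of which IPO11 was not called with no filter on low values (limma adjusted p = 0.0564). TNPO3 carries splicing factors with arginine-serine repeats.

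The transportins 1 and 2 are close paralogues that import RNA-binding proteins with proline-tyrosine signals. TNPO1 (chr5:72112139-72212560, plus strand) had 31.9 and 30.3 FPKM in the vehicle control libraries and 23.2 and 24.1 after MGH-CP1, for a log2 fold change of -0.38 (SE 0.06, limma adjusted p = 8.42e-04). TNPO2 (chr19:12810008-12834825, minus strand) had 35.1 and 36.6 FPKM without the compound and 35.9 and 37.4 with it, and its libraries overlapped (log2 fold change 0.03, SE 0.05, limma adjusted p = 0.678). The ratio of TNPO1 to TNPO2 was 0.909 and 0.827 without the compound and 0.646 and 0.644 after treatment. This pair was picked after its values were seen, so the difference between them is a description. IPO13, which works in both directions, also overlapped between conditions, at 11.8 to 12.7 FPKM without and 12.5 to 14.1 with MGH-CP1 (log2 fold change 0.12, SE 0.08, limma adjusted p = 0.230). IPO4 was listed at 0 in every library, as was a gene on the same strand that overlaps it, so nothing can be read from it.

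All 7 exportins were lower, with a median of -0.47 (-0.74 to -0.29). CSE1L (chr20:47662849-47713489, plus strand), the exportin of importin alpha, had 189 and 175 FPKM in the vehicle control libraries, the highest level of the 50 genes, and 106 and 112 after MGH-CP1. The vehicle control libraries differed more than the MGH-CP1 libraries, yet both stood well above them (log2 fold change -0.74, SE 0.05, limma adjusted p = 4.39e-05). XPO1, the exportin of leucine-rich nuclear export signals (chr2:61704984-61765761, minus strand), had 58.6 and 59.1 FPKM without the compound and 44.2 and 43.4 with it. Its fall was 0.42 (SE 0.05, limma adjusted p = 2.60e-04), and the ratio of XPO1 to CSE1L went from 0.310 and 0.338 to 0.419 and 0.389. Of the exportins of RNA, XPO5, which carries microRNA precursors, and XPOT, which carries tRNA, each fell by 0.58 (limma adjusted p = 7.70e-05 and 1.33e-04). XPO4, XPO6 (the exportin of actin) and XPO7 fell by 0.47, 0.35 and 0.29, and XPO6 was not called with no filter on low values (limma adjusted p = 0.0563).

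All 3 Ran cycle genes were lower (median -0.52, range -0.69 to -0.50). RAN (chr12:131356424-131362223, plus strand) had 157 and 159 FPKM in the vehicle control libraries and 107 and 113 after MGH-CP1, for a log2 fold change of -0.52 (SE 0.05, limma adjusted p = 1.12e-04). RCC1 (chr1:28832455-28865812, plus strand), the chromatin-bound exchange factor that loads RAN with GTP, had 40.9 and 42.8 FPKM without the compound and 29.2 in both libraries with it. Its log2 fold change was -0.50 (SE 0.05, limma adjusted p = 1.57e-04), and the groups were separated by far more than their spread. RANBP1 (chr22:20103461-20114878, plus strand), a cofactor of RAN's GTPase activation in the cytoplasm, had 57.3 and 59.7 FPKM in the vehicle control libraries and 35.0 and 36.6 with the compound, a fall of 0.69 (SE 0.05, limma adjusted p = 4.57e-05).

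**Figure D5:**
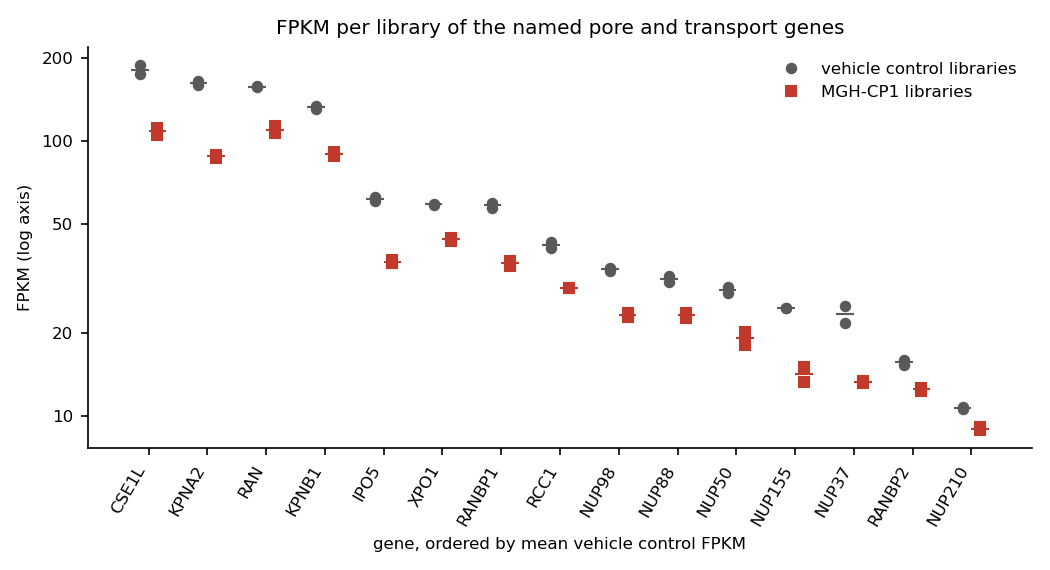
FPKM (y axis, log scale) in each library for the 15 genes described by their values in every library under the naming rule, ordered by mean vehicle control level (x axis); grey circles are vehicle control, red squares MGH-CP1 and short lines the group means. In every gene both red squares lie below both grey circles, from CSE1L at 175 and 189 against 106 and 112 to NUP210 at 10.6 and 10.8 against 8.86 and 9.07.

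Genes at higher levels had larger falls within the set, and the share of genes that were lower also rose with level in the whole table. All 9 members with a vehicle control mean above 50 FPKM were lower, beside 39.1% of the 1347 genes tested above that level. Across the 47 genes the log2 fold change correlated with log2(FPKM + 1) of the vehicle control mean (Pearson's r = -0.638, Spearman's rho = -0.544) and little with listed gene length (r = 0.0941, rho = 0.129). Over all 12080 genes tested the correlation with level was r = -0.229 and rho = -0.248. These correlations are across genes of the same 4 libraries, which are not independent replicates, the level enters both axes of those with level, and no p is given.

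Reads of overlapping genes could not be told apart where the counting strand is not stated. Another listed gene overlaps 28 of the 50 members, and in 10 of them it holds at least 5% as many fragments. Among these are KIF2A on the same strand as IPO11, SNHG3 on the same strand as RCC1 (456 to 718 fragments against 1462 to 3102), TRMT2A opposite RANBP1, RABEP1 and RPAIN opposite NUP88, SH3GLB2 opposite NUP188 and PCMT1 opposite NUP43. KIF2A, PCMT1 and RABEP1 held more fragments than the member they overlap, at 139.5%, 128.9% and 107.7% of its count over the 4 libraries. These are overlaps of whole gene spans and not of exons, so how far they affect the values of these genes is not known.

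Other genes of nuclear transport were listed from general knowledge. They are pore subunits without a NUP number, Ran cofactors and receptors outside the symbol rule, and mRNA export factors. These genes were more often lower than higher. Of 40 such rows 37 were tested, of which 21 (56.8%) were lower, 2 were higher and 14 were not called, with a median log2 fold change of -0.21. Of all genes tested, 23.8% were lower and 27.1% were higher. DDX19B is listed in 2 of these rows, once at 0. The pore subunits came closest to the members: 8 of 12 (66.7%) were lower, among them the membrane nucleoporin NDC1 (listed as TMEM48, log2 fold change -0.89), SEH1L of the Y complex (-0.60), AHCTF1, which recruits the Y complex to chromatin (-0.53), NUPL1 of the channel (-0.50) and TPR of the basket (-0.35). GLE1, NUPL2, SEC13 and AAAS were not called, at -0.16, -0.07, 0.14 and 0.18. SEC13, which also belongs to a coat of secretory vesicles, had 53.1 and 56.5 FPKM in the vehicle control libraries and 60.3 in both libraries after MGH-CP1 (SE 0.05, limma adjusted p = 0.0541).

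The Ran cofactors and receptors had 2 of 7 tested lower (28.6%), a share near that of all genes. These were RANGAP1, the GTPase activator of RAN, and RANBP3, a cofactor of XPO1 (-0.52 and -0.24), and SNUPN, the import adaptor of snRNPs, was higher (0.32, SE 0.08, limma adjusted p = 0.0119), with the call lost without the first MGH-CP1 library (adjusted p = 0.0696) and with no filter on low values (0.0566). NUTF2, which brings RAN back into the nucleus, was not called (-0.12, SE 0.07, adjusted p = 0.179 from limma). Among 18 mRNA export genes tested, 11 (61.1%) were lower, including ALYREF (-0.68), DDX39A (-0.46) and THOC1 (-0.44), while the export receptor NXF1 was not called (-0.12, SE 0.07, limma adjusted p = 0.169).

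DDX39B, an RNA helicase of mRNA export and the paralogue of DDX39A, went the other way. It had 14.7 FPKM in both vehicle control libraries and 32.7 and 31.2 after MGH-CP1, for a log2 fold change of 1.07 (SE 0.06, limma adjusted p = 1.67e-05). DDX39A had 76.8 and 80.9 FPKM without the compound and 55.8 and 58.3 with it. The conditions did not overlap in either gene, and their directions were opposite. A read-through gene that spans DDX39B on the same strand was listed at 0 in all 4 libraries, and how fragments on exons that both share were counted is not stated, so the DDX39B value may cover only part of its transcript.

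Other measures moved with the falls. Of 19 proliferation genes listed for comparison, all 19 were lower, beside 23.8% of all 12080 genes tested. Their median was -0.75 and their range -1.28 (MKI67) to -0.52 (MCM5), so that several of the transport genes above changed by as much as the smaller falls of this list. The MGH-CP1 libraries were also the shallower ones and had the larger mitochondrial share. With library totals taken without mitochondrial genes, 41 of the 47 genes were lower, with a median of -0.43. The part of proliferation and of depth in the falls was not tested.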

How the data were processed

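The authors deposited FPKM per gene, with symbol, coordinates and length. The submitters' processing notes name CASAVA 1.8, STAR and hg19; the counting tool and its strand setting are not given in the sources used here. Times length, 100% of the deposited values are whole multiples of a step per library (within 0.01 fragments), which gave the fragments counted. For the 12080 genes with a mean of at least 1 FPKM over the 4 libraries, log2(FPKM + 1) was compared with limma 3.58.1 in R 4.3.3 (two-sided, eBayes with trend, prior degrees of freedom 5.97), and p-values were adjusted by Benjamini-Hochberg across these genes, with a threshold of 0.05. Such fold changes understate those of low genes. A single gene with 2 libraries against 2 cannot reach an exact permutation p below 0.333, so calls rest on the variance shared between genes. Replicates differed beyond sampling noise (chi-square per degree of freedom 3.02 and 4.14).

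The members and all lists were chosen with earlier results of these data known. Values in every library were given for the called member with the largest fall or rise in each role group and for RAN, RANBP1, RCC1, CSE1L, KPNB1, KPNA2, XPO1 and RANBP2. Of the other genes shown so, KPNA6, TNPO1, TNPO2, NUP62CL, SEC13, DDX39A and DDX39B were picked after their values were seen. KPNA7 (as fragments), IPO13, AXL and ALB were also given in every library outside this rule. Promoters came from RefSeq (GRCh38.p14), matched by symbol; gene coordinates are those of the deposited table. Alternatives were a pseudocount of 0.1, no filter, a mean of at least 5 FPKM, median-ratio and quantile scaling, the replicate number as a block, no trend, no shared variance, limma voom on the fragments, leaving out each library and, chosen after seeing the data, totals without mitochondrial genes.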

Additional observations from a re-analysis of the deposited data

How the results depend on the processing

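The count of members called lower was 41 under every setting that kept all 4 libraries and shared variance between genes, except 36 with no filter on low values (without NUP214, XPO6, IPO11, NUP35 and NUP160); it was 39 to 40 when a library was left out (39 without the first MGH-CP1 or the first vehicle control library), and 0 members were higher under any of these. With no variance shared between genes, 0 members were lower at an adjusted p below 0.05 and 36 at an unadjusted p under 0.05, with the 15 members named by rule at adjusted p of 0.0555 to 0.0841; by that test 4 genes in all were lower and 9 higher. The other transport genes then gave 0 lower (17 unadjusted) and 0 higher (3 unadjusted). With no filter, 1 of them was higher (SNUPN lost its call), and of 24878 genes 2280 were higher and 1844 lower, against 3273 and 2869. Leaving out a library gave 15 to 21 lower and 1 to 4 higher among the other transport genes: 1 without the first MGH-CP1 library and 4 without the second vehicle control library. The members' median lay between -0.47 and -0.42 in all settings, leaving out a library included. Of the 210 refits of members named by rule, 191 left the call as it was, 19 lost it (15 without shared variance, 4 for NUP210 without a library) and 0 changed direction.

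Across genes, the differences between replicates in the 2 conditions were nearly uncorrelated (r = 0.0777). With a single difference per condition, this cannot show whether libraries of the same number share a culture or batch. With the replicate number as a block, 41 members were lower and 0 higher, with a median of -0.45, and 22 of the other transport genes were lower and 3 higher. With a library left out, the lone library of its group is assumed to vary like the others. Depth limits KPNA7 and NUP210L, and 2 libraries per condition limit every error given.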
